A study of Rattus norvegicus with 92 samples.

Results

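The rows described here were 68 of the 20508 rows of the expression tables, chosen because they were at a similar level in the adrenal gland and the hypothalamus and far lower in 4 peripheral tissues. A row entered when its mean in air-exposed rats reached 10 CPM (a row's normalised count per 1000000 in its sample) in both adrenal and hypothalamus, when the pair of means lay within 5-fold of each other, and when the lower of the pair was at least 5 times the mean in liver, muscle, adipose and lung each. Hippocampus and nasal epithelium were left free. The rows were selected on the levels of the air-exposed samples in those 6 tissues, so these levels are given as a description with no test. The rows made up 5.61% of the 1213 rows that met the same limits for hypothalamus without regard to adrenal, and 21.9% of the 311 rows that did so for adrenal.

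Male Wistar-Kyoto rats of 12 to 13 weeks, with no transgene or deletion named for any group, were exposed nose-only for 4 h to acrolein at 3.16 ppm or to air without it. Acrolein is a reactive aldehyde and respiratory irritant found in smoke. Poly(A) RNA of 8 tissues was sequenced, with adrenal from 6 air- and 4 acrolein-exposed samples, and hypothalamus and hippocampus from 6 and 6 each. Nasal epithelium had 5 and 6, lung 8 and 6, liver 5 and 6, muscle 6 and 6, and adipose 5 and 4 after averaging a pair of air columns with the same sample number. Each tissue's table was normalised alone, so levels in different tissues were set side by side without a test. Columns hold between 2513375 and 30194066 reads, with a median of 15694239. The labels number the samples and say no more of how they were kept apart, so the p-values measure the spread between these samples.

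The adrenal gland joins a steroid-making cortex to a medulla whose chromaffin cells arise, like sympathetic neurons, from the neural crest. Chromaffin cells and neurons both pack transmitters or peptides into vesicles and release them by calcium-triggered exocytosis, and both carry the proteins that this needs. The hypothalamus starts the hormonal stress response that ends in glucocorticoid release from the adrenal cortex, and it also drives the sympathetic outflow to the medulla. In whole tissue, fewer cells of a type and less RNA per cell cannot be told apart.

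The tables name rows by Ensembl rat identifiers, 67 of the 68 by transcript and 1 by gene, and 0 of all the identifiers were found in the gene table used here. The rows are therefore called by identifier, no role is assigned to any of them, and lists of chromaffin, neuronal or secretory genes could not be counted. Rows were ranked and held to limits in CPM without a correction for length, since their lengths are not known here.

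In air-exposed rats the 68 rows ran from 10.5 to 685 CPM in adrenal with a median of 43.6 CPM, and from 10.5 to 877 CPM in hypothalamus with a median of 62.2 CPM. Their median was 0.678 CPM in lung, 0.653 CPM in adipose, 0.338 CPM in muscle and 0.220 CPM in liver. The lower of the adrenal and hypothalamus means was between 5.20 and 471 times the highest of those 4 tissues, with a median of 20.1 times. Summed over the 68 rows, the level was 5726 ± 552 CPM in adrenal (SD, n = 6) and 7003 ± 679 CPM in hypothalamus (SD, n = 6). The same sum was 49.7 ± 6.48 CPM in liver (SD, n = 5), which sets the scale of the contrast that the rule required.

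**Figure D1:**
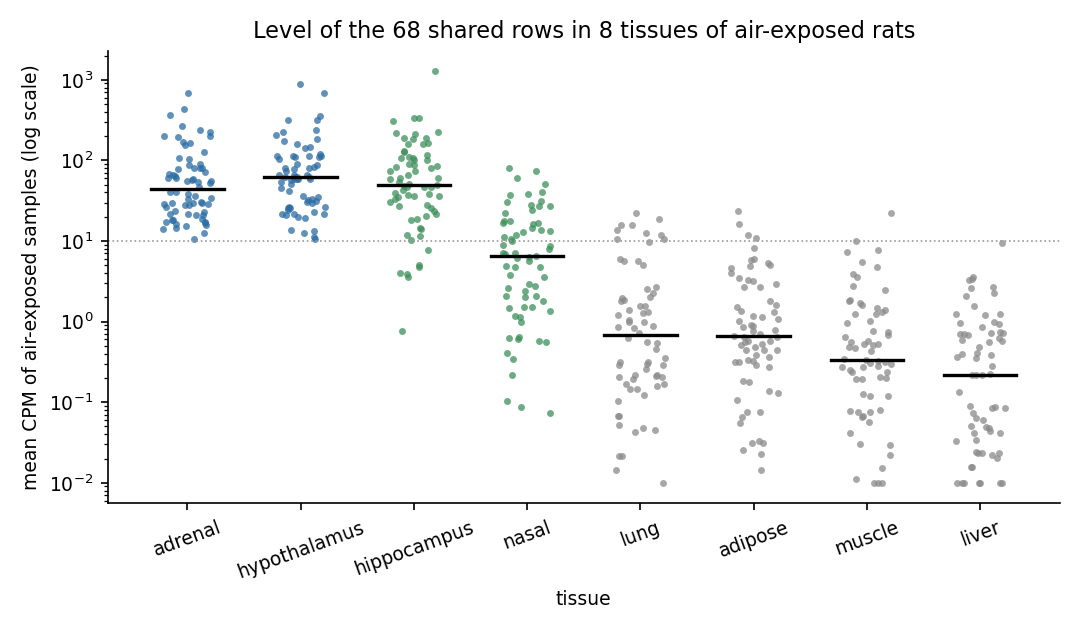
Mean CPM of each of the 68 rows in the air-exposed samples of 8 tissues, on a log axis, with each point 1 row, the bar the median of the rows and the dotted line the 10 CPM limit; 11 values under 0.01 CPM, zeros included, are drawn at the lower edge. Hippocampus, which the rule did not use, had a median of 50.2 CPM, close to the medians of adrenal and hypothalamus, while nasal epithelium had a median of 6.43 CPM.

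The rule left room for rows that leaned to either side. Of the 68 rows, 25 were higher in adrenal and 43 in hypothalamus, and 34 lay within 2-fold. Every adrenal air sample stood above every hypothalamus air sample for 10 rows, the order was the opposite for 20 rows, and the samples of the pair of tissues overlapped for 38 rows. The row that leaned furthest to hypothalamus was ENSRNOT00000106262, with adrenal at 21.03% of hypothalamus, and the row that leaned furthest to adrenal was ENSRNOT00000015824, at 54.0 CPM in adrenal and 12.5 CPM in hypothalamus. The closest row inside the limits was ENSRNOT00000079054, at 29.2 CPM in adrenal, 30.7 CPM in hypothalamus and 5.61 CPM in lung. Just outside stood ENSRNOT00000100494, at 659 CPM in adrenal, 650 CPM in hypothalamus and 132 CPM in lung, and ENSRNOT00000118478, at 54.5, 51.7 and 10.5 CPM. ENSRNOT00000001477 lay just inside the 10 CPM limit, at 10.5 CPM in adrenal and 13.2 CPM in hypothalamus.

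**Figure D2:**
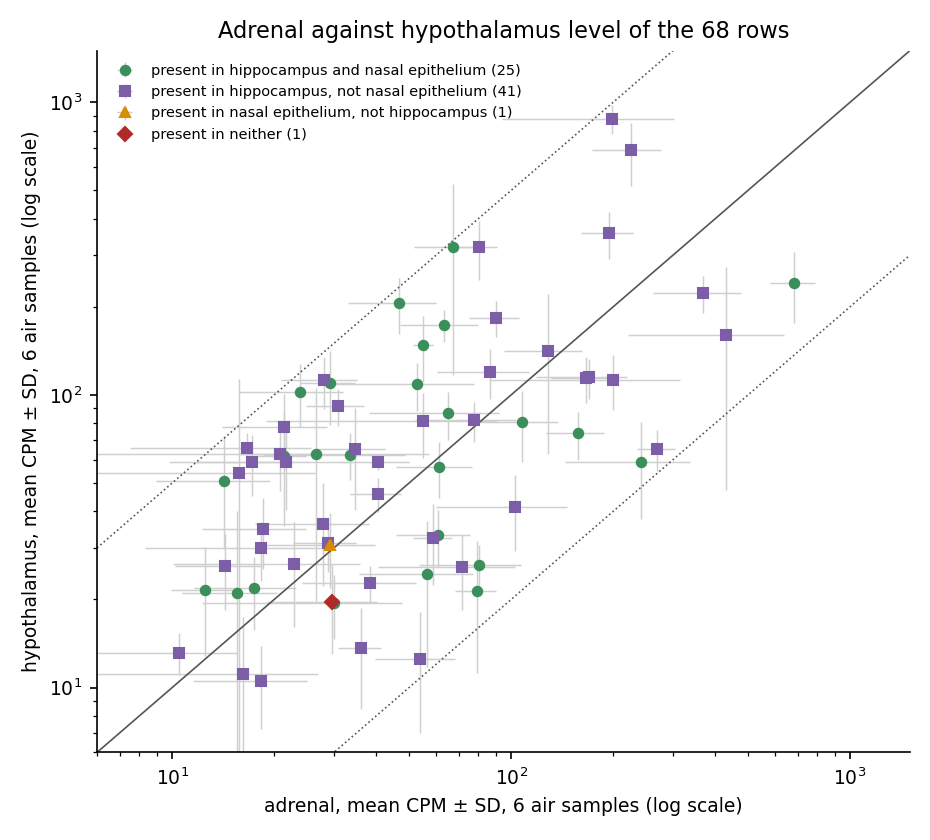
Mean CPM ± SD of the 6 air-exposed adrenal samples against the 6 air-exposed hypothalamus samples for the 68 rows, on log axes, with the solid line at equal levels, the dotted lines at the 5-fold limits and SD bars running off the axes where they reach them. Colours and shapes give the level in hippocampus and nasal epithelium, and 41 of the 68 points are squares, which were at 20% or more of the lower of the pair in hippocampus but not in nasal epithelium.

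The 10 rows with the highest lower mean of the pair are followed by sample. ENSRNOT00000110127 stood at 658, 564, 704, 685, 868 and 629 CPM in the adrenals of air rats 2, 3, 5, 6, 7 and 8, and at 890, 1123, 608 and 891 CPM in those of acrolein rats 9, 10, 11 and 12. In hypothalamus the same row was at 191, 179, 328, 255, 309 and 186 CPM in air rats 1, 3, 5, 6, 7 and 8. Its lowest adrenal was thus above its highest air hypothalamus, and the 2 exposure groups overlapped in adrenal.

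ENSRNOT00000093241 leaned the other way, from 129 to 274 CPM in air adrenals (mean 226 ± 52.2, SD, n = 6) and from 516 to 943 CPM in air hypothalami (mean 684 ± 167, SD, n = 6). It was higher again in hippocampus, from 881 to 1672 CPM in the 6 air samples. ENSRNOT00000112421 was at 877 ± 98.4 CPM in air hypothalami (SD, n = 6), where its 6 samples lay between 695 and 992 CPM. In adrenal it was far less even, at 125, 53.4, 349, 215, 181 and 265 CPM in air rats 2, 3, 5, 6, 7 and 8 and at 46.6, 192, 163 and 100.3 CPM in acrolein rats 9 to 12. The lowest adrenals for this row were air 3 and acrolein 9.

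The same pair of adrenals was lowest for ENSRNOT00000106886, at 122 CPM in air 3 and 108 CPM in acrolein 9 against 214 to 769 CPM in the other 8. ENSRNOT00000090857, named here after its values were seen, was at 61.4 CPM in air 3 and 47.4 CPM in acrolein 9, with the other 8 between 97.8 and 341 CPM. The summed level of the 68 rows was 4734 CPM in adrenal air 3, the lowest of the 10 adrenals, and 5436 CPM in acrolein 9. Not every row fell there, since ENSRNOT00000012408 had its highest adrenal in air 3, at 186 CPM, and its next in acrolein 9, at 124 CPM.

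In hypothalamus ENSRNOT00000106886 stood at 388 CPM in air 6 and 504 CPM in acrolein 15, with the other 10 samples between 99.3 and 211 CPM. ENSRNOT00000106262 showed the same pair of samples apart, at 733 CPM in air 6 and 868 CPM in acrolein 15 against 192 to 306 CPM in the other 10. For ENSRNOT00000057036 both samples were at 272 CPM, and the other 10 ran from 79.8 to 228 CPM. One sample of each exposure group was high for these 3 rows, so the groups overlapped.

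Of the 10 rows, ENSRNOT00000057036 had the closest pair of means, at 128 ± 33.1 CPM in adrenal and 142 ± 79.0 CPM in hypothalamus (SD, n = 6 each). ENSRNOT00000090621 was at 369 ± 107 CPM in adrenal and 223 ± 32.1 CPM in hypothalamus, and ENSRNOT00000111560 at 194 ± 33.9 and 356 ± 65.5 CPM (SD, n = 6 each). ENSRNOT00000024428 was at 169 ± 51.1 CPM in adrenal and 115 ± 18.1 CPM in hypothalamus, and ENSRNOT00000073564 at 166 ± 34.6 and 114 ± 20.3 CPM (SD, n = 6 each). ENSRNOG00000068250 ran from 84.5 to 400 CPM in air adrenals and from 92.0 to 148 CPM in air hypothalami. These pairs of means lay within 2-fold of each other, and the air samples overlapped for ENSRNOT00000057036, ENSRNOT00000024428, ENSRNOT00000073564 and ENSRNOG00000068250 but not for the other two.

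**Figure D3:**
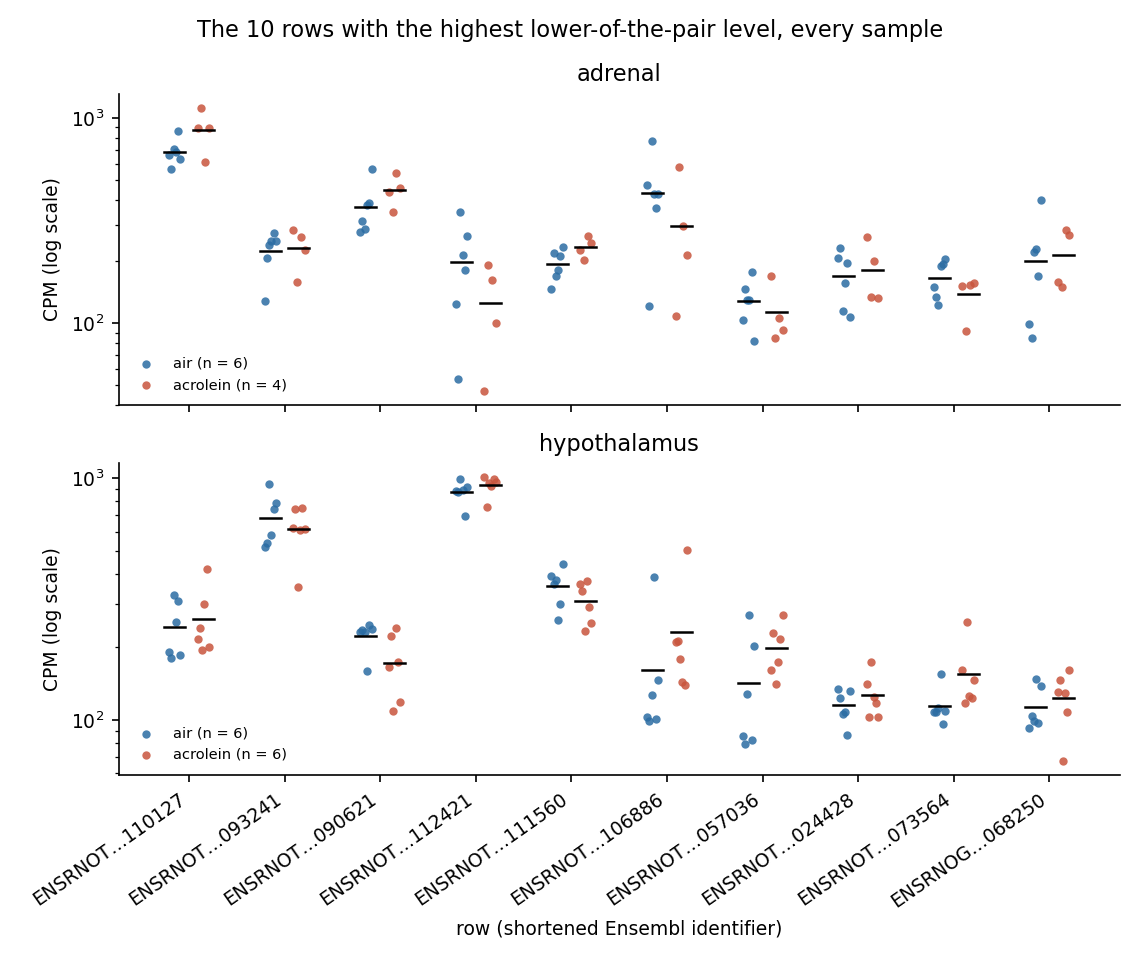
CPM of the 10 rows with the highest lower mean of the pair in each adrenal sample (upper panel, 6 air and 4 acrolein) and each hypothalamus sample (lower panel, 6 and 6), on log axes, with each point 1 sample and the bars group means. ENSRNOT00000112421 spread from 46.6 to 349 CPM in adrenal but only from 695 to 1005 CPM in hypothalamus, and air and acrolein points intermingle for most rows.

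The spread between samples of a group was measured as the within-group SD of log2(normalised count + 1). In adrenal the median SD of the 68 rows was 0.42, against 0.33 over the 8874 rows at 10 CPM or more, and 55 of the 68 rows lay above that median. In hypothalamus the medians were 0.41 and 0.40, and 35 of the 68 rows lay above. In hippocampus they were 0.50 and 0.40, and 47 of the 68 rows lay above. In nasal epithelium the rows had a median SD of 0.96, with 33 above 1 on the log2 scale, against 0.38 and 5.18% over the 10430 rows at 10 CPM or more. Only 27 of the 68 reached 10 CPM there, and their median SD was 0.77, against 1.07 for the other 41. The most uneven row in adrenal was ENSRNOT00000099607, named after its values were seen, which ran from 1.73 CPM in acrolein 11 to 85.2 CPM in air 5.

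Some adrenal samples also held other rows of brain type. Over 308 rows that are not among the 68, that were at 50 CPM or more in both hypothalamus and hippocampus and over 20 times lower in the 4 low tissues, the median adrenal level was 5.54% of the hypothalamus level in adrenal air 5 and 0.677% to 1.80% in the other 9 adrenals. Air 5 had the highest air adrenal level for 9 of the 68 rows, and 67 of the 68 remained at 10 CPM or more in adrenal when air 5 was left out.

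The same limits were then applied to the acrolein-exposed samples, whose values the rule did not use. The limits were chosen with earlier results of these data known, so this is not an independent check. There 54 of the 68 rows met every limit, and 12 rows that were not among the 68 did so as well. Of the 14 rows that did not, 11 were more than 5-fold apart, 10 of them with hypothalamus the higher. A further limit, 10 CPM in adrenal and hypothalamus, was missed by 8, and the limit over the low tissues by 2. A single limit could be missed with another. In the air samples 14 of the 68 rows were already more than 3-fold higher in hypothalamus, against 5 in adrenal. Taken one by one, the acrolein adrenals held 58 to 64 of the 68 rows at 10 CPM or more and the air adrenals 59 to 68, and the acrolein hypothalami held 64 to 67.

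The level in hippocampus, which the rule left free, shows how far the rows were particular to the pair of tissues. A row was counted as present there when its air mean was at least 20% of the lower of adrenal and hypothalamus. By that limit 66 of the 68 rows (97.1%) were present in hippocampus and 26 (38.2%) in nasal epithelium, with 25 in both and 41 in hippocampus alone. The name given to the rows, shared by adrenal and hypothalamus, therefore covers rows that nearly all stood in hippocampus too. Hippocampus was above hypothalamus for 23 rows and was the highest of the 8 tissues for 14, against 30 for hypothalamus, 23 for adrenal and 1 for nasal epithelium.

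Set against hypothalamus alone, at 20% of its level, 95.6% of the 68 rows were present in hippocampus and 30.9% in nasal epithelium. Among the 1053 rows that met the hypothalamus limits but had adrenal at under 20% of hypothalamus, the shares were 95.1% and 22.4%. Over all 9854 rows at 10 CPM or more in hypothalamus they were 98.9% and 86.6%. No test was run on these shares. The 159 adrenal rows with hypothalamus at under 20% of adrenal were present in hippocampus for 5.66% and in nasal epithelium for 9.43%, measured against adrenal.

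The row with the lowest hippocampus level for its pair was ENSRNOT00000093647. It was at 15.7, 20.3, 35.9, 34.6, 27.0 and 44.0 CPM in air adrenals 2, 3, 5, 6, 7 and 8 and at 10.7 to 26.9 CPM in the 6 air hypothalami. The 12 hippocampi lay between 0.154 and 2.37 CPM and the 11 nasal samples between 0 and 0.256 CPM, so neither tissue overlapped adrenal or hypothalamus for this row. It was the 1 row of the 68 present in neither free tissue. At under 1 CPM in air liver, lung, adipose and muscle as well, it was the row nearest to being shared by the pair alone in these 8 tissues.

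ENSRNOT00000079054 was the 1 row present in nasal epithelium and not in hippocampus, at 3.91 ± 1.30 CPM in hippocampus (SD, n = 6) and 16.7 ± 8.07 CPM in nasal epithelium (SD, n = 5). ENSRNOT00000012408 was at 103 ± 43.0 CPM in adrenal and 41.4 ± 12.1 CPM in hypothalamus (SD, n = 6 each). It reached at most 23.0 CPM in a hippocampus and 0.703 CPM in a nasal sample. ENSRNOT00000015824 and ENSRNOT00000001185 were close to 0 in nasal epithelium too, with highest nasal samples of 0.254 and 0.826 CPM. ENSRNOT00000107962, named after its values were seen, was at 73.0 ± 15.4 CPM in air nasal epithelium (SD, n = 5), above its 21.3 CPM in adrenal and 62.0 CPM in hypothalamus. Its hippocampus level was higher still, at 8.79 times the lower of the pair against 3.43 times for nasal epithelium.

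The nasal samples differed strongly among themselves. The 68 rows summed to between 520 and 1259 CPM in the 5 air samples and between 465 and 1989 CPM in the 6 acrolein samples, with nasal acrolein 11 at 1989 CPM and the highest of the 11 samples for 25 rows. ENSRNOT00000090857 alone ran from 10.2 CPM in acrolein 15 to 572 CPM in acrolein 11.

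The exposure comparison asked whether the level of these rows differed after 4 h of acrolein. It was fitted with limma in each tissue over all rows, and a row was called at a Benjamini-Hochberg adjusted p of at most 0.1 with a change above 1.2-fold. The rule did not use the acrolein samples, but the air samples, which it did use, are one arm of the comparison. In adrenal 0 of the 68 rows were called, beside 0% of 19411 rows tested, and edgeR and DESeq2 on whole reads also called 0 of the 68. At an unadjusted p under 0.05 there were 12 of the 68 rows with limma, where 7.54% of all rows passed. They were 8 higher after acrolein, beside 3.32% of all rows, and 4 lower, beside 4.22%. This count of 12 became 7 without adrenal air 3, beside 5.55% of all rows, and 7 without air 6, beside 5.34%. It became 18 without air 8, beside 12.3% of all rows, and 6 without acrolein 12, beside 4.34%. It was 10 without air 5, beside 6.19%. With all samples it was 7 by limma without a mean trend, beside 6.89%, and 13 by edgeR, beside 8.45%.

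The median change of the 68 rows in adrenal was 0.04 on the log2 scale, against -0.01 over all rows, and the summed level was 5723 ± 313 CPM after acrolein (SD, n = 4). With each adrenal sample rescaled to the same total, the median change was -0.11, against -0.15 over all rows, so its sign depended on the scaling. ENSRNOT00000048236 had the smallest p. Its normalised counts were 260, 219, 238, 268, 352 and 428 in air 2, 3, 5, 6, 7 and 8 and 365, 545, 567 and 411 in acrolein 9 to 12, so the groups overlapped. The change was 0.70 ± 0.21 (log2, SE), with an adjusted p of 0.649 by limma. ENSRNOT00000111296 was at 138, 190, 205, 217, 355 and 360 in air and at 389, 473, 388 and 364 after acrolein. Its groups did not overlap on this scale, which held for 1 of the 68 rows and 1.31% of all rows, and its change was 0.80 ± 0.25 (log2, SE) with an adjusted p of 0.649. In CPM the same row overlapped, since acrolein 12 was at 30.1 CPM and air 7 at 37.5 CPM.

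In hypothalamus 0 of the 68 rows were called, beside 0% of 19902 rows, and 0 of the 68 by edgeR and by DESeq2. At an unadjusted p under 0.05 there were 2 of the 68, beside 2.69% of all rows, and 0 of the 68 had groups that did not overlap, beside 0.0854%. ENSRNOT00000090621 had the smallest p, with 3528, 3516, 3606, 2724, 3922 and 3731 normalised counts in air 1, 3, 5, 6, 7 and 8. After acrolein it was at 2510, 3479, 1470, 3630, 2669 and 2073 in rats 9, 10, 11, 12, 14 and 15. Its change was -0.46 ± 0.21 (log2, SE), adjusted p = 0.963 by limma. The low values came from some of the acrolein samples, while acrolein 10 and 12 lay among the air samples.

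ENSRNOT00000085921 in hypothalamus ran from 544 to 1322 normalised counts in air and from 1001 to 1461 after acrolein, a change of 0.42 ± 0.19 (log2, SE) with an adjusted p of 0.963. The count of rows at an unadjusted p under 0.05 rested on single samples here, and the share over all rows moved with it. It was 12 without air 6, beside 12.6% of all rows, 4 without acrolein 12, beside 4.39%, and 3 without air 8, beside 2.48%. It was 0 or 1 without any other sample, beside 1.48% to 3.09% of all rows. Hypothalamus acrolein 11 was the highest of the 12 samples for 26 of the 68 rows and the lowest for 13. Air 7 was the lowest for 23 rows and had the lowest summed level of the 68 rows, at 5941 CPM.

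In hippocampus 0 of the 68 rows were called by any of the 3 tools, beside 0% of 19988 rows by limma. At an unadjusted p under 0.05 there were 4, beside 4.31% of all rows, and all 4 were higher, beside 2.15% of all rows in that direction. ENSRNOT00000027054 ran from 898 to 1304 normalised counts in air and from 1218 to 1675 after acrolein, a change of 0.40 ± 0.14 (log2, SE), adjusted p = 0.833 by limma. Its groups overlapped only between 1218 and 1304.

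In nasal epithelium, the site of first contact with the gas, 0.651% of 20289 rows were called and 0 of the 68 were. At an unadjusted p under 0.05 there were 7 of the 68, or 10.3%, beside 12.2% of all rows. ENSRNOT00000106262 was at 256, 260, 360, 277 and 289 normalised counts in air 2, 4, 5, 6 and 8 and at 404, 386, 339, 523, 459 and 518 in acrolein 9, 10, 11, 12, 14 and 15. Of the acrolein samples, acrolein 11 alone lay under the highest air sample. The change was 0.59 ± 0.17 (log2, SE), adjusted p = 0.231 by limma.

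ENSRNOT00000079054 moved the other way in nasal epithelium, at 225, 213, 467, 328 and 129 normalised counts in air and 44.7, 104, 121, 92.6, 193 and 84.5 after acrolein. Acrolein 14 lay above air 8, and the other acrolein samples lay under every air sample. The change was -1.34 ± 0.38 (log2, SE), adjusted p = 0.237 by limma. DESeq2 on whole reads called both of these rows, with adjusted p = 0.0446 for ENSRNOT00000106262 and 0.0419 for ENSRNOT00000079054, while edgeR called 0 of the 68. The median change of the 68 rows in nasal epithelium was -0.30 (log2), with 48 lower, beside -0.00186 over all rows. The size of this median rested on single samples and on the tool. It was -0.06 without air 6, -0.13 without acrolein 9, -0.14 without acrolein 15, -0.16 without air 5, -0.17 without acrolein 10, -0.47 without acrolein 11 and -0.49 without air 4. It was -0.07 by edgeR and -0.10 by DESeq2.

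**Figure D4:**
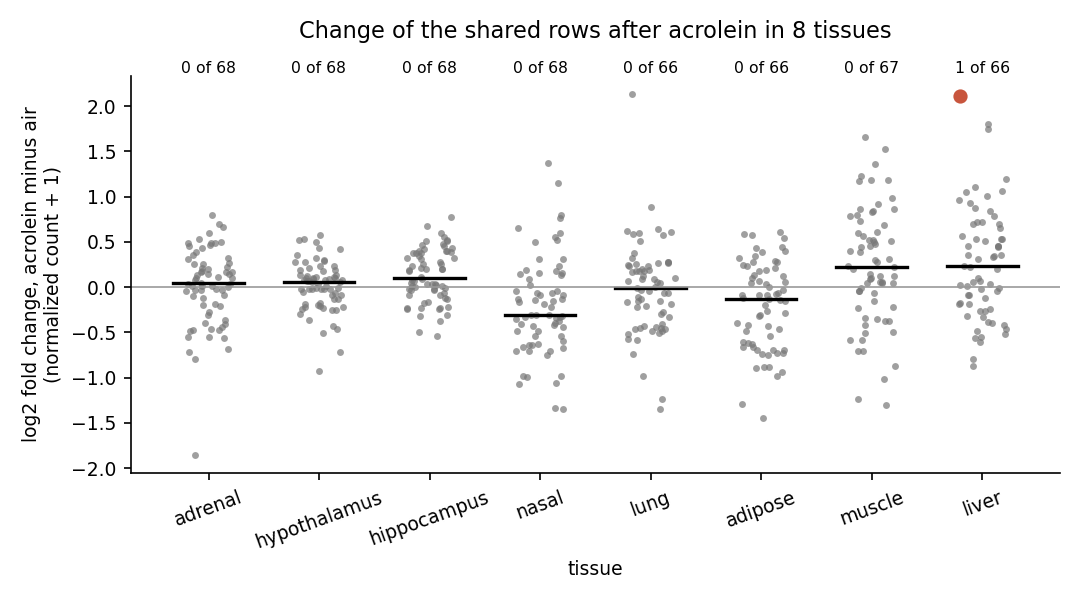
Log2 fold change of each shared row, acrolein minus air, on log2(normalised count + 1), in 8 tissues, with each point 1 row, the bar the median and the numbers above the rows called of those tested. One row in liver, drawn in red at 2.11, was called. The median in nasal epithelium, at -0.30, became -0.06 without nasal air 6.

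Liver held few reads of these rows, and 66 of the 68 could be tested there. The rule required a low air level in liver, so the air arm of this comparison was held low by the choice of rows. One row was called, ENSRNOT00000106886, beside 0.368% of 18769 rows. It had 0, 2, 0, 0 and 1 reads in air livers 1, 2, 5, 7 and 8 and 2, 4, 8, 11, 5 and 5 reads in acrolein livers 9, 11, 13, 14, 15 and 16. The air livers were all at or under 3 reads. The acrolein mean of 5.82 normalised counts was 1.82 times a floor of 3 reads per library, with no error of the acrolein mean taken into account. The fitted change of 2.11 ± 0.44 (log2, SE; adjusted p = 0.0884 by limma) depends on the pseudocount at such levels. The call was lost, with adjusted p between 0.102 and 0.143, under each of 6 other fits (another pseudocount or filter, equal totals, no trend, edgeR), and without air 1, 2 or 8 or any acrolein liver, with adjusted p up to 0.193.

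ENSRNOT00000111560 in liver had 2, 0, 0, 1 and 1 reads in air and 4, 2, 8, 12, 2 and 4 reads after acrolein, and was not called (adjusted p = 0.120 by limma). ENSRNOT00000046659 had 2, 0, 2, 0 and 0 reads in air and 4, 3, 5, 9, 6 and 3 reads after acrolein (adjusted p = 0.120 by limma). In reads every acrolein liver was above every air liver for this row, although the normalised counts overlapped, and its acrolein mean was 1.56 times the floor. At an unadjusted p under 0.05 there were 7 of the 66 rows beside 19.2% of all rows, and all 7 were higher, or 10.6% beside 10.3% in that direction. In normalised counts the groups did not overlap for 2 of the 66, beside 2.49% of all rows. These were ENSRNOT00000106886 and ENSRNOT00000111560, and in reads each had an air and an acrolein liver tied at 2. All 7 rows at an unadjusted p under 0.05 were among the 10 rows of the 68 highest in adrenal.

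Rows of adrenal type were followed in the same livers. In the livers, 32 rows that are not among the 68, that were at 100 CPM or more in adrenal with hypothalamus under 20% of it and liver under 0.5% of it, summed to 12.2 to 17.8 CPM in the 5 air samples and to 36.7 to 222 CPM in the 6 acrolein samples. Acrolein 14 was the highest, as it was for the reads of ENSRNOT00000106886, ENSRNOT00000046659 and ENSRNOT00000111560. The limits were set on air means, so a low level in the air livers was part of the choice of the 32 rows. The difference between air and acrolein livers is therefore a description, and the part of these rows in the call was not tested.

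**Figure D5:**
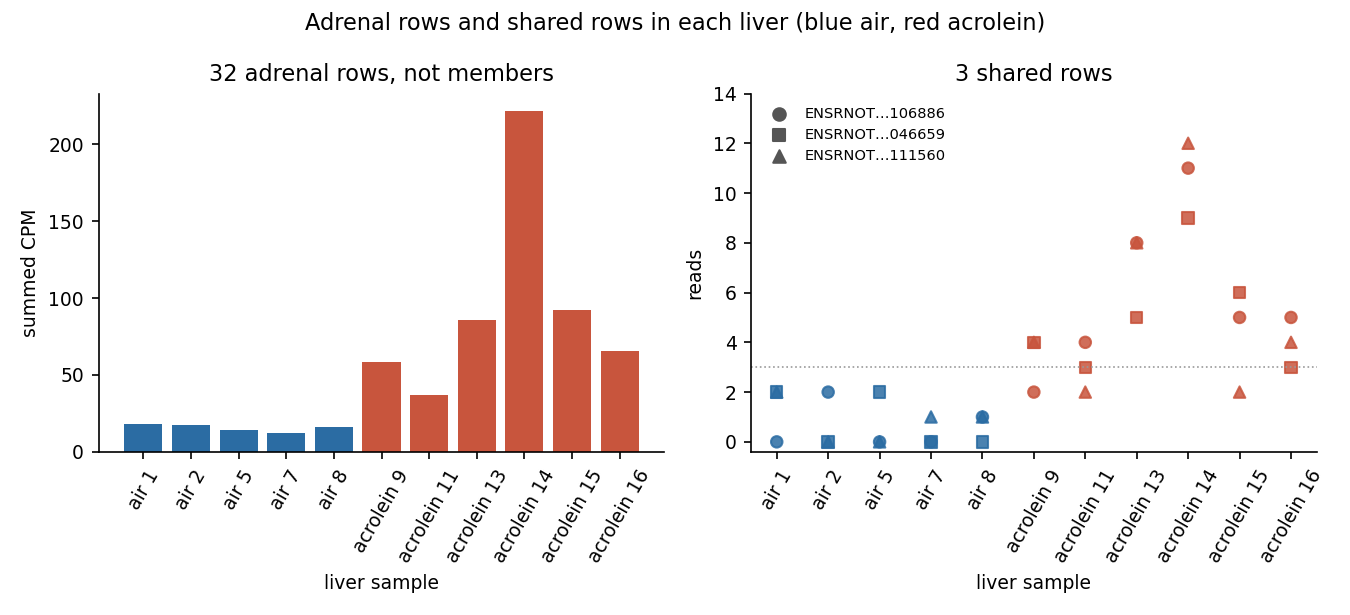
Left, summed CPM of 32 adrenal rows outside the 68 in each liver, as bars from 0; right, reads of ENSRNOT00000106886, ENSRNOT00000046659 and ENSRNOT00000111560 in the same livers, with a dotted line at 3 reads. Blue marks the 5 air livers and red the 6 acrolein livers, and acrolein 14 was highest in both panels, at 222 CPM and at 9 to 12 reads. The 32 rows were chosen in part for a low level in the air livers.

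In lung 0 of 66 rows tested were called, beside 0.00499% of 20052 rows, with 4 at an unadjusted p under 0.05, beside 7.67%. In adipose 0 of 66 were called beside 0% of 19153 rows, and 0 of 66 passed an unadjusted p under 0.05, beside 2.71%. In muscle 0 of 67 were called beside 0% of 19204 rows, with 7 at an unadjusted p under 0.05, beside 2.99%. Among rows with a mean normalised count of at least 10 it was 1 of 29, beside 2.64%. The smallest p in muscle belonged to ENSRNOT00000119170, with 0 to 4 reads in air samples and 2 to 9 after acrolein. As in liver, the rule itself required a low air level in lung, adipose and muscle. In these 3 tissues edgeR and DESeq2 called 0 of the rows as well, although DESeq2 gave no adjusted p to 26 of the 68 rows in lung. ENSRNOT00000091952 in muscle ran from 36.2 to 166 normalised counts in air and from 135 to 262 after acrolein, a change of 0.83 ± 0.33 (log2, SE) with an adjusted p of 1.00 by limma.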

How the data were processed

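Male rat tissues were profiled by mRNA sequencing. For the liver, reads were mapped to rn7 with Ensembl annotation in Partek Flow, rarely seen genes and samples that did not cluster by tissue were removed, and DESeq2 was run in R 4.1.3. The labels name the same tools for the other tissues. The authors deposited, for each tissue, one table of counts divided by a size factor per sample, treated here as a signal. Values were whole multiples of 1 read (tolerance 0.01), so whole reads were recovered.

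The deposited signal was turned into CPM by column sums. limma 3.58.1 (R 4.3.3) with a mean trend was fitted per tissue on log2(value + 1) over rows above 0 in at least 2 samples, with Benjamini-Hochberg adjustment over all rows, and the fold understates the change of low rows. edgeR 4.0.16 and DESeq2 1.42.0 were run on whole reads, and the methods were tested on simulated data. Named rows were the 10 with the highest lower mean, the 5 lowest in hippocampus and in nasal epithelium, those with the smallest p per tissue, and those nearest the limits, of which some are printed. The rows, limits and lists were chosen with earlier results of these data known. Planned gene lists could not be applied without names. Total reads were 6665417 to 16918736 per adrenal, 12775556 to 18469744 per hypothalamus and 9035061 to 25850677 per liver. Floors cover counting error only.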

Additional observations from a re-analysis of the deposited data

Results flagged for a closer look

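Of 58 sets of samples searched for a value far from the rest of its group, 10 held one. The limit used gives about 1 in 20 by chance for normally distributed values. The search used levels without a log and sets that share samples, so that rate need not hold here. The sum of the 68 rows in hippocampus was 5758 CPM in acrolein 14, with the next lowest at 7035 CPM. In adrenal, ENSRNOT00000073564 was at 91.8 CPM in acrolein 10, with the next at 151 CPM. In hypothalamus, acrolein 11 had the lowest level of ENSRNOT00000093241 at 353 CPM and the highest of ENSRNOT00000073564 at 254 CPM. Hypothalamus air 6 had the lowest level of ENSRNOT00000090621 at 159 CPM, the highest of ENSRNOT00000106886 at 388 CPM and the highest of ENSRNOT00000073564 at 154 CPM. ENSRNOT00000106886 was also far above its group in hypothalamus acrolein 15, at 504 CPM, and ENSRNOT00000112421 was lowest in hypothalamus acrolein 10, at 758 CPM. Among the air adrenals, the level of other brain rows was 5.54% of hypothalamus in air 5, with the next at 1.80%.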

How the results depend on the processing

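The number of shared rows was 118 with a 3-fold limit over the low tissues and 34 with a 30 CPM minimum, and 65 to 71 without one air sample at a time. Tables left at their deposited scale gave 55 rows, 48 of them among the 68. Presence in nasal epithelium held for 12 rows at 50% and 41 at 10%. In nasal epithelium DESeq2 called 2 of the 68 rows, and leaving out one sample gave 0 to 1, the 1 being ENSRNOT00000106262 without acrolein 11 and ENSRNOT00000111296 without air 4. In liver the 1 call became 0 with a pseudocount of 0.1 or 5, no filter, equal totals, no trend or edgeR, and 0 to 3 without one sample. With a mean of at least 10 required, the called row was not tested, and 0 of the 24 rows left were called. The call was lost without air 1, 2 or 8 or any acrolein liver. DESeq2 gave no adjusted p to 50 of the 68 rows in liver, ENSRNOT00000106886 among them, and called ENSRNOT00000090621 instead. The former had 0 to 11 reads per liver and the latter 14 to 59. The cause was not tested.

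Over all rows, calls ranged from 13 to 1740 in liver and 58 to 285 in nasal epithelium without one sample. DESeq2 called 1699 liver and 452 nasal rows, 95 in lung and 18 in adrenal, where limma called 69, 132, 1 and 0. Of 18 named log2 changes, 0 reversed. Leaving out one sample gave 1 to 9 of the 68 rows at an unadjusted p under 0.05 in hippocampus, beside 1.94% to 6.66% of all rows. In nasal epithelium it gave 4 to 9, beside 7.19% to 19.7%, in lung 2 to 5, beside 5.34% to 12.4%, in liver 4 to 10, beside 13.4% to 23.2%, and in muscle 2 to 11, beside 1.97% to 4.21%. No paired analysis was possible because air and acrolein samples share no number.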
